A study of Saccharomyces cerevisiae with 6 samples.

Results

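The genes described here are the 10 bud-site selection genes of budding yeast that were listed by role: the axial landmark genes BUD3, BUD4 and AXL2, the genes of the Rsr1 GTPase module (RSR1, BUD5 and BUD2), and the bipolar landmark genes BUD8, BUD9, RAX1 and RAX2. They were found through the platform's gene symbols, and all 10 were measured, each by 1 probe, among 6226 features (4060 named genes and 2166 unnamed probes). Their levels were compared between 3 shaken cultures of a flor strain of Saccharomyces cerevisiae and 3 cultures of a wine strain. The flor strain, P3_Kan, is a haploid of mating type alpha that derives from P3-D5 and carries a KanMX cassette, a drug-resistance marker. The wine strain, K1_Kan, is a haploid of mating type a, and the labels do not say what Kan stands for in its name. Strain and mating type therefore differ together and cannot be told apart. The medium was synthetic and imitated wine, the temperature was 28 °C, cells were taken when the optical density (600 nm) reached 1, and under shaking the flor strain formed no velum, the floating film of flor yeasts. Each strain is a single haploid isolate. The labels number the arrays as biological replicates and mark replicate 2 of each strain also as technical rep 2. Nothing more is said of how the cultures arose, so that p-values reflect only the variation among these cultures.

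A budding yeast cell marks in its cortex where it will next bud. Haploid cells of either mating type normally bud in the axial pattern, next to the previous division site, which the landmark proteins Bud3, Bud4 and Axl2 mark together with Axl1. Diploid cells, and cells that switch to filamentous growth, use the poles, which Bud8 and Bud9 mark with the help of Rax1 and Rax2. Either landmark recruits Bud5, the exchange factor that loads the Ras-like GTPase Rsr1 with GTP, and Bud2 returns Rsr1 to its GDP form. Active Rsr1 in turn brings the machinery of the GTPase Cdc42 to the chosen site, where growth is polarised.

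The arrays gave 1 log2 intensity per probe, between 5.29 and 15.88, with medians of 8.33 to 8.35. Pearson correlations across features were at least 0.9971 among the wine arrays and 0.9877 to 0.9971 among the flor arrays, and the lowest of these involved flor replicate 1. Marker lists matched the mating types that the labels give. In the flor strain all 7 a-specific genes were lower and all 4 alpha-specific genes were higher, and the mean log2 intensity of 12 diploid and meiotic markers lay between 6.10 and 6.21 in every array. Of these markers, NDT80 (0.62) and REC8 (0.56) were higher in the flor strain by the log2 changes given and none was lower.

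The measured intensities of the bud-site selection genes differed little between the strains. RSR1 was 1.29-fold and BUD3 1.23-fold higher in the flor strain, none of the 10 genes was lower, and the other 8 did not pass the test (limma, adjusted p under 0.05 over all 6226 features). Thus 2 of 10 genes (20%) passed, where 44.1% of all features did, 20.5% higher and 23.6% lower. The arrays of the strains did not overlap in 5 of the 10 genes, as in 56.1% of all features. For the 8 genes that did not pass, the 95% intervals reached at most 1.18-fold higher and 1.39-fold lower in the flor strain. The median log2 change of the 10 genes was −0.09 and the median size of a change was 0.14, beside −0.02 and 0.23 over all features. In RSR1 the change was larger in size than in 66.9% of all features, in BUD3 than in 59.2%, and in BUD2 than in 8.19%.

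**Figure D1:**
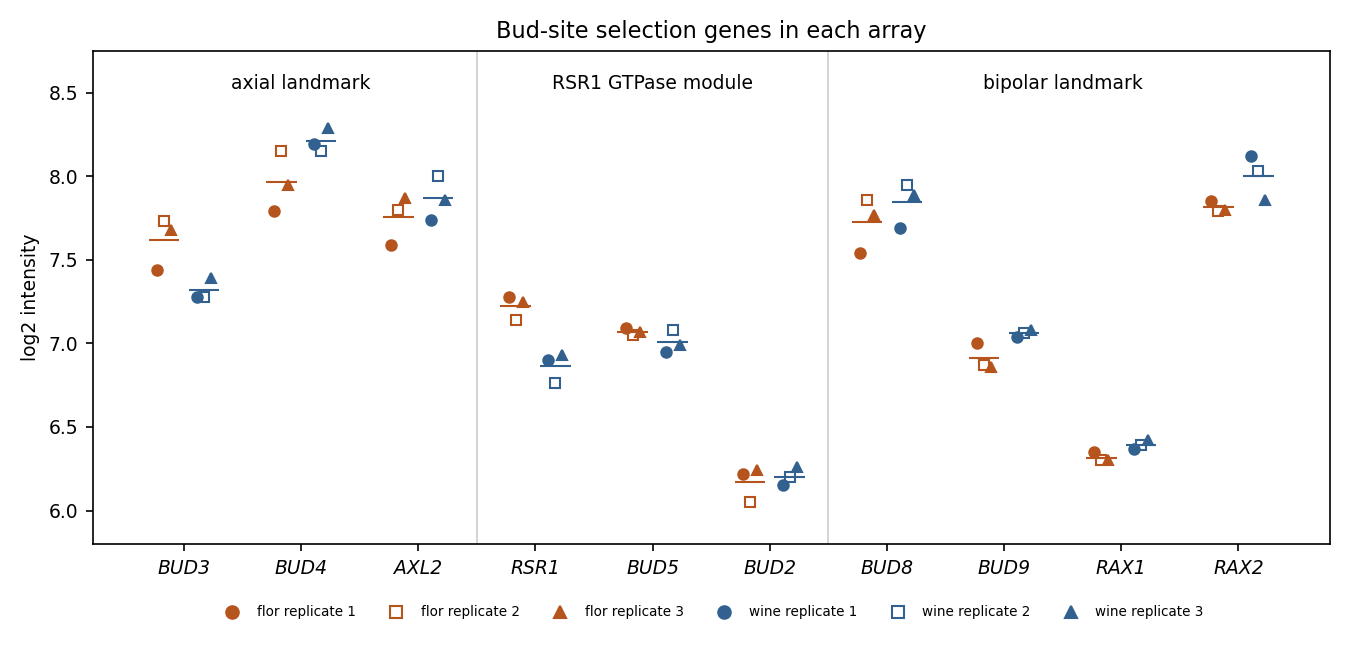
Log2 intensity (vertical axis) of the 10 bud-site selection genes in each of the 6 arrays, with a horizontal line at the mean of each strain. The flor arrays lie above all wine arrays for BUD3 and RSR1 and below them for BUD9, RAX1 and RAX2, and the heights of different genes cannot be compared because each has its own probe.

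Among the axial landmark genes, BUD3 was higher in the flor strain, and BUD4 and AXL2 did not pass. BUD3 encodes a protein of the bud neck that marks the division site. Its log2 intensities were 7.44, 7.73 and 7.68 in flor replicates 1, 2 and 3 and 7.28, 7.28 and 7.39 in the wine replicates. All flor arrays lay above all wine arrays, as they did for 25.7% of features, and the narrowest gap was between flor replicate 1 and wine replicate 3. The means were 7.61 ± 0.15 and 7.31 ± 0.06 (± is the SD of n = 3 arrays here and throughout), a log2 change of 0.30 (95% interval 0.08 to 0.52, limma adjusted p = 0.031). This call rested on nearly the full set of arrays. Omission of flor replicate 2 or 3 raised the adjusted p to 0.089 or 0.099, omission of any one wine replicate raised it to 0.10 (replicate 1), 0.10 (replicate 2) or 0.057 (replicate 3), whereas without flor replicate 1 the log2 change was 0.39 (adjusted p = 0.001).

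BUD4 encodes an anillin-like protein that acts with Bud3 at the septin ring. It gave log2 intensities of 7.79, 8.15 and 7.95 in the flor arrays and 8.19, 8.15 and 8.29 in the wine arrays. Flor replicate 2 reached the level of wine replicate 2, so the strains overlapped, and flor replicate 1 was the lowest array. The log2 change of −0.25 (95% interval −0.48 to −0.01) did not pass (adjusted p = 0.084). Without flor replicate 2 it was −0.34 and passed (adjusted p = 0.022), and without flor replicate 1 it was −0.16 (adjusted p = 0.14).

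AXL2 encodes the transmembrane protein of the axial landmark, and its transcription is known to peak in late G1. Its log2 intensities were 7.59, 7.80 and 7.87 in the flor arrays and 7.74, 8.00 and 7.86 in the wine arrays. The strains overlapped, and replicate 1 was the lowest array of each. The log2 change was −0.11 (−0.35 to 0.12, adjusted p = 0.42).

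AXL1, the haploid-specific gene whose product is needed for axial budding and which also matures a-factor, was not among the 10 genes and was lower in the flor strain. It gave log2 intensities of 7.19, 7.25 and 7.24 in the flor arrays and 7.67, 7.53 and 7.50 in the wine arrays, with no overlap. The log2 change was −0.34 (95% interval −0.52 to −0.16, adjusted p = 0.008), a level 1.27-fold lower. The call was lost when only slide 2 was used (−0.37, adjusted p = 0.077) and when the trend with gene length given further on was taken out (−0.20, adjusted p = 0.072). In the list of 10 haploid-specific genes, GPA1 (0.49) and DIG2 (0.25) were higher, RME1 (−1.01) and AXL1 were lower, and the other 6 did not pass. Thus 40% of this list passed, beside 44.1% of all features, with a median log2 change of 0.13.

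Within the GTPase module, RSR1 was higher in the flor strain and its regulators did not pass. The log2 intensities of RSR1 were 7.28, 7.14 and 7.25 in the flor arrays and 6.90, 6.76 and 6.93 in the wine arrays. Every flor array lay above every wine array. The means of 7.22 ± 0.07 and 6.86 ± 0.09 gave a log2 change of 0.36 (95% interval 0.17 to 0.55, adjusted p = 0.0074), or 1.29-fold (1.13 to 1.47). The call held with each single array left out, at log2 changes of 0.31 to 0.40, but not on slide 2 alone (0.30, adjusted p = 0.11), which holds 2 arrays per strain.

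BUD5, the exchange factor gene, gave log2 intensities of 7.09, 7.05 and 7.07 in the flor arrays and 6.95, 7.08 and 6.99 in the wine arrays. The flor arrays lay within 0.02 (SD) of their mean, inside the range of the wine arrays but for the highest of them. The log2 change was 0.07 (−0.10 to 0.24, adjusted p = 0.50). In the R64 reference genome BUD5 lies next to MATALPHA2 at the mating-type locus on chromosome III. The probe for MATALPHA2 was higher in the flor strain by a log2 change of 1.33 (adjusted p = 2.3e-06), and since the silent cassettes share its sequence it does not identify the locus expressed.

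BUD2, the gene of the GTPase-activating protein, was the dimmest of the 10 probes, at the 12.5th percentile of all features, where background can mask a difference. Its log2 intensities were 6.22, 6.05 and 6.24 in the flor arrays and 6.15, 6.20 and 6.26 in the wine arrays. The strains overlapped, and flor replicate 2 lay below every wine array. The log2 change was −0.03 (−0.22 to 0.16, adjusted p = 0.80).

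**Figure D2:**
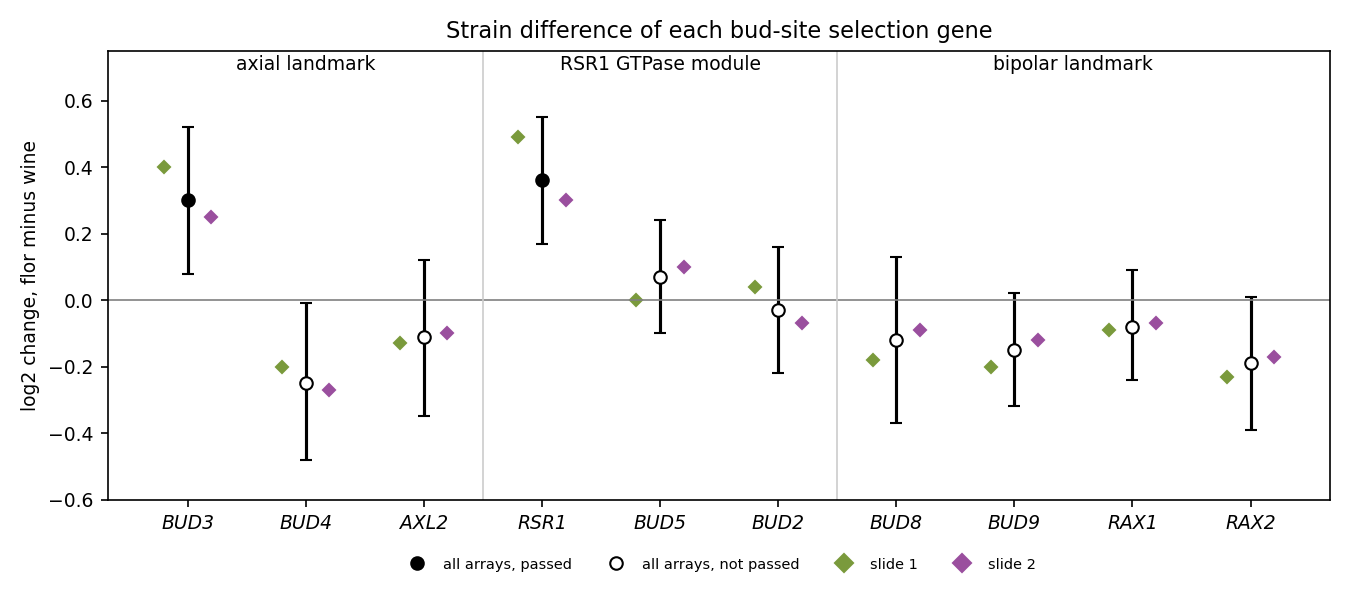
Log2 change of each gene, flor minus wine (vertical axis), with the 95% interval of the limma fit, filled where the adjusted p was under 0.05, beside the change on slide 1 (1 array per strain) and slide 2 (2 arrays per strain). RSR1 at 0.36 and BUD3 at 0.30 are the filled points, and the 4 bipolar landmark genes lie between −0.19 and −0.08.

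None of the 4 bipolar landmark genes passed, although 3 of them were lower in every flor array than in any wine array, as were 30.4% of all features. BUD8 encodes the landmark of the pole distal to the birth scar and is known to be transcribed most in G2/M. Its log2 intensities were 7.54, 7.86 and 7.77 in the flor arrays and 7.69, 7.95 and 7.89 in the wine arrays. The strains overlapped, and as for AXL2, replicate 1 was lowest in each. The log2 change was −0.12 (−0.37 to 0.13, adjusted p = 0.40).

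BUD9 encodes the landmark of the proximal pole, with known transcription in late G1. It gave 7.00, 6.87 and 6.86 in the flor arrays and 7.04, 7.06 and 7.08 in the wine arrays as log2 intensities. The strains did not overlap, with flor replicate 1 the closest to the wine arrays. The log2 change of −0.15 (−0.32 to 0.02) did not pass (adjusted p = 0.15), and without flor replicate 1 it was −0.19 and passed (adjusted p = 0.037).

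RAX1 and RAX2 encode membrane proteins that bind each other and hold the bipolar landmarks at old division sites. RAX1 gave log2 intensities of 6.35, 6.30 and 6.30 in the flor arrays and 6.37, 6.39 and 6.42 in the wine arrays. These groups did not overlap, but the log2 change was only −0.08 (−0.24 to 0.09, adjusted p = 0.42), with the probe at the 14.4th percentile of all features. RAX2 gave log2 intensities of 7.85, 7.79 and 7.80 in the flor arrays and 8.12, 8.03 and 7.86 in the wine arrays. Wine replicate 3 came close to flor replicate 1, and the log2 change was −0.19 (−0.39 to 0.01, adjusted p = 0.11).

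The arrays lay on 2 slides, flor replicate 3 with wine replicate 2 on slide 1 and the other 4 on slide 2, and each gene was compared between them. The log2 change of RSR1 was 0.49 on slide 1 and 0.30 on slide 2, and that of BUD3 was 0.40 and 0.25. With slide as a block, RSR1 had an adjusted p of 0.014 and BUD3 one of 0.05, just under the threshold. For BUD4, AXL2 and the 4 bipolar landmark genes, the change was below 0 on both slides, between −0.23 and −0.09 on slide 1 and between −0.27 and −0.07 on slide 2. BUD2 was at 0.04 and −0.07, and BUD5 at 0.00 and 0.10.

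Genes that act together were also compared within each array, where any scaling factor of the array cancels. Of the 12 pairs of genes that share a role, 5 had within-array differences that did not overlap between the strains, beside 60.4% of all pairs of features. BUD3 minus BUD4 was −0.35, −0.43 and −0.28 in flor replicates 1, 2 and 3 and −0.91, −0.87 and −0.91 in the wine replicates, on the log2 scale. The strain means of this difference were thus 0.55 apart, and the deviation of flor replicate 1, low for both genes, no longer showed. RSR1 minus BUD2 was 1.06, 1.09 and 1.01 in the flor arrays and 0.74, 0.56 and 0.67 in the wine arrays. RSR1 minus BUD5 was 0.18, 0.09 and 0.18 in the flor arrays and −0.05, −0.32 and −0.07 in the wine arrays. RSR1 thus lay higher relative to either regulator in every flor array than in any wine array. Since BUD5 (log2 change 0.07) and BUD2 (−0.03, a dim probe) changed little, these differences mostly repeat the change of RSR1 itself (0.36). With the length trend described next removed, the differences between the strain means fell from 0.39 to 0.22 for RSR1 minus BUD2 and from 0.29 to 0.14 for RSR1 minus BUD5, while BUD3 minus BUD4 stayed at 0.53.

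BUD8 minus BUD9, the balance of the landmarks of the opposite poles, was 0.54, 0.98 and 0.91 in the flor arrays and 0.65, 0.89 and 0.82 in the wine arrays. The strain means of this difference, 0.81 ± 0.24 and 0.78 ± 0.12, lay closer together than the arrays of either strain. The other pairs without overlap were BUD3 minus AXL2 (log2 change 0.41) and BUD9 minus RAX1 (−0.07, or −0.03 with the length trend removed). A two-sided exact permutation test of 3 arrays against 3 cannot go below p = 0.10, which these 5 pairs reached (0.24 after Benjamini-Hochberg adjustment over the 12 pairs), so none passed.

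**Figure D3:**
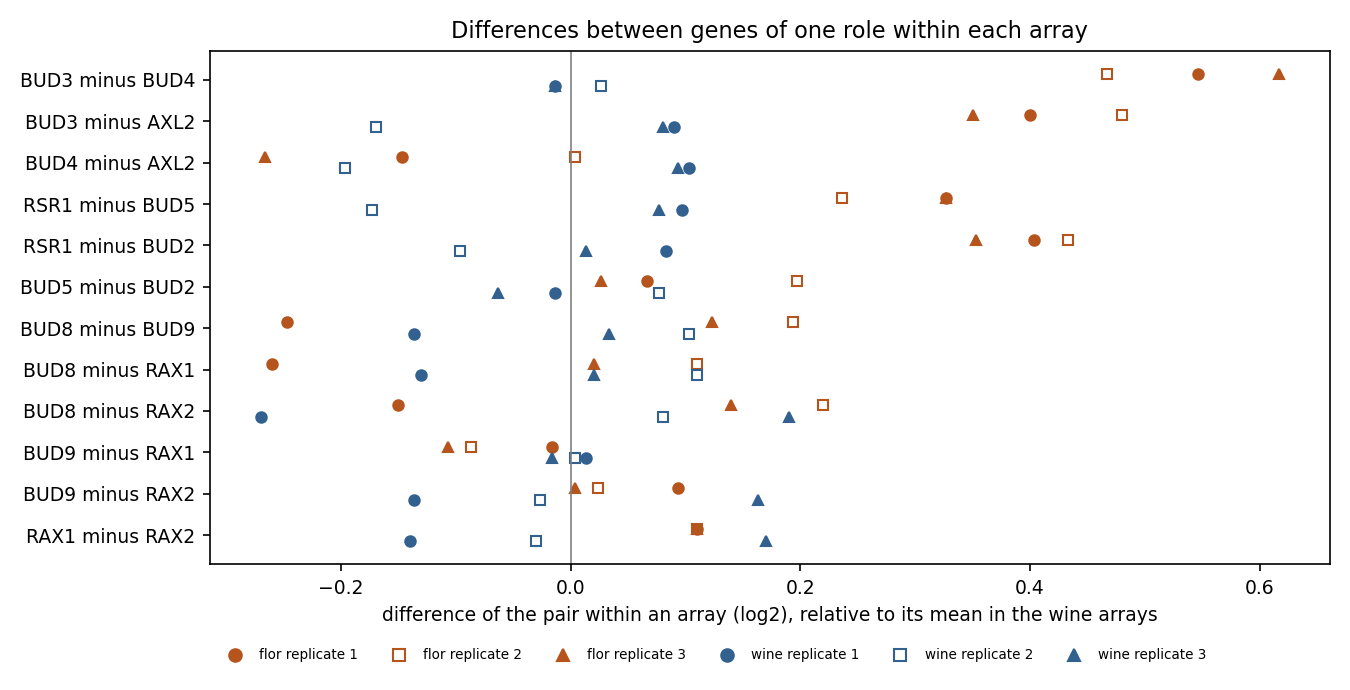
Difference between the log2 intensities of the genes of each pair within each array (horizontal axis), relative to the mean of that difference in the wine arrays. The flor arrays stand clear to the right for BUD3 minus BUD4, BUD3 minus AXL2, RSR1 minus BUD5 and RSR1 minus BUD2, and overlap the wine arrays in most other pairs.

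Log2 changes followed gene length across the array, and the bud-site selection genes are mostly long. The median log2 change of named genes ran from 0.10 in the shortest quintile by R64 gene length to −0.14 in the longest quintile (2268 to 14733 bases), which held 5 of the 10 genes. BUD3 (4911 bases) was higher in the flor strain against this trend, RAX2 (3663 bases) and AXL2 (2472 bases) lay near it, and BUD4 (4344 bases) lay below it. With the trend removed by a loess fit, BUD3 was at 0.41 (adjusted p = 0.0023) and RSR1, a short gene of 819 bases, at 0.33 (adjusted p = 0.0063). BUD4 was then at −0.12, RAX2 at −0.05, BUD9 at −0.05 and RAX1 at −0.02, and AXL2 (0.04), BUD2 (0.12) and BUD8 (0.00) were no longer below 0. BUD5 rose from 0.07 to 0.20 and did not pass (limma adjusted p = 0.071). The same 2 genes passed, and 0 were lower.

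**Figure D4:**
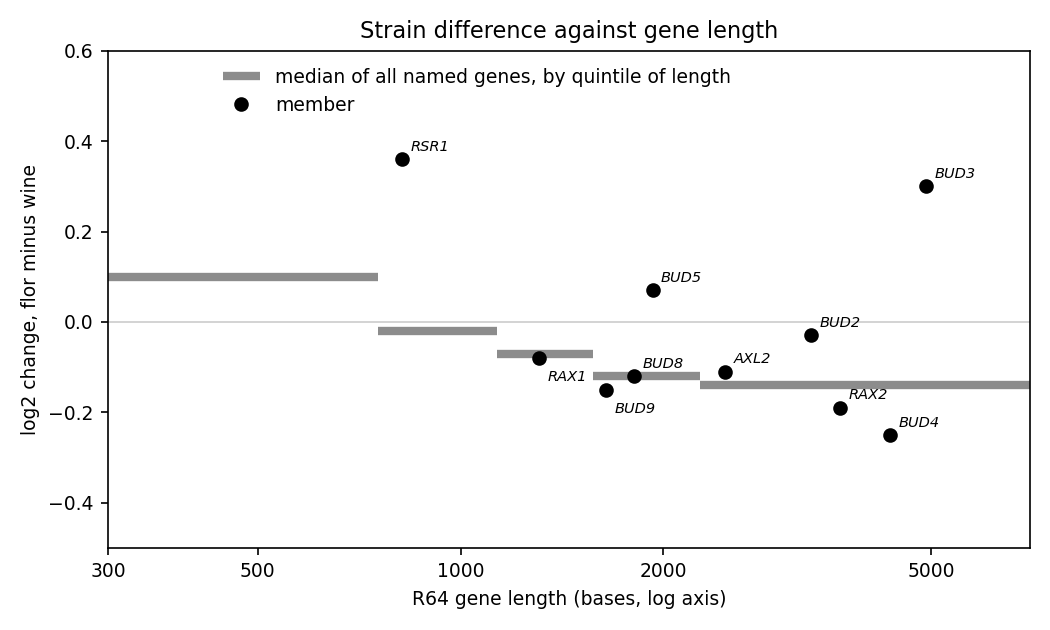
Log2 change, flor minus wine (vertical axis), against R64 gene length in bases (horizontal log axis) for the 10 genes, with grey bars, the outer ones running past the axis, at the median change of all named genes in each quintile of length. RSR1 and BUD3 lie well above the bars, and AXL2, BUD8, BUD9 and RAX1 lie on or near them.

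Downstream of Rsr1, the genes of the Cdc42 polarity module differed in both directions. Of 20 genes, 9 were lower in the flor strain and 4 higher (65% against 44.1% of all features), with a median log2 change of −0.23. The paralogous scaffold genes BOI1 and BOI2, whose products bind Cdc42 and Bem1, differed in opposite directions, BOI2 at 8.83 ± 0.08 in the flor and 7.90 ± 0.02 in the wine strain (0.94) and BOI1 at 8.66 ± 0.05 and 9.33 ± 0.08 (−0.67). SKM1, a kinase gene of the Ste20 family, was higher by 0.73, and CDC42 itself by 0.34. The scaffold gene BEM1 (−0.48) and the kinase gene STE20 (−0.42) were lower. The call of CDC42 was lost when wine replicate 2 was omitted (adjusted p = 0.06) and that of BEM1 when any wine replicate was (0.069, 0.079 and 0.052 for replicates 1, 2 and 3), and 5 genes of the list were lower without wine replicate 2 or 3.

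In the list of the polarisome, formins and actin cables, 3 of 13 genes were higher and 3 lower (46.2% against 44.1% of all features, median 0.01). ABP1, which encodes an actin-binding protein of cortical patches, was lower by a log2 change of −0.83, and the polarisome genes BUD6 (−0.40) and PEA2 (−0.35), both needed for the bipolar pattern of diploids, were lower too. The tropomyosin gene TPM1 (0.35), SMY1 (0.27) and the formin gene BNI1 (0.22) were higher, but each lost its call with single arrays left out. BNI1 (adjusted p = 0.047) kept its call in only 2 of 15 alternatives and lost it under quantile normalization (0.051) and median centring (0.056) as well, while TPM1 also lost it with the length trend removed (0.25, adjusted p = 0.073) and SMY1 with slide as a block (0.061). The adjusted p of TPM1 was 0.056 with flor replicate 2 omitted, and 0.052 and 0.082 with wine replicates 1 and 2 omitted in turn. For SMY1 it was 0.07 with flor replicate 3 omitted, and 0.089, 0.087 and 0.13 with each wine replicate omitted. For BNI1 it was 0.092 and 0.14 with flor replicates 2 and 3 omitted, and 0.066, 0.12 and 0.17 with each wine replicate omitted. Omitting wine replicate 1 or 2 also ended the call of PEA2 (0.071 and 0.054) and left 0 genes of this list higher, while omitting flor replicate 2, flor replicate 3 or wine replicate 3 left 1.

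Septin genes and their regulators, which build the ring that Bud3 and Bud4 bind, showed 3 of 12 genes higher and 2 lower (41.7% against 44.1% of all features, median 0.01). BNI4, which links chitin synthase to the ring, was higher by a log2 change of 0.60, the septin gene CDC11 by 0.56 and BNI5 by 0.35. The kinase genes KCC4 (−0.25) and ELM1 (−0.24) were lower. Both calls were lost when flor replicate 3 was omitted (adjusted p = 0.07 for KCC4 and 0.069 for ELM1) and when each wine replicate was (0.059, 0.068 and 0.14 for KCC4, and 0.08, 0.11 and 0.061 for ELM1), which left 0 genes lower. Omission of flor replicate 2 gave adjusted p-values of 0.089 and 0.052, and 1 other gene of the list was then lower. With the length trend removed, KCC4 was at −0.10 and ELM1 at −0.11, and neither passed.

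Further genes named BUD, most of them found in screens for random budding and acting in RNA processing, secretion or translation, included 2 of 13 that were higher and 2 that were lower (30.8% against 44.1% of all features, median 0.06). BUD13 (0.53), of a pre-mRNA splicing and retention complex, and BUD32 (0.40), a kinase gene of the KEOPS complex, were higher. BUD7 (−0.38), of the exomer coat that carries cargo to the plasma membrane, was lower, as was BUD6 above. Without flor replicate 1, 4 of these genes were higher, and without wine replicate 2 only 1 was, since BUD32 then had an adjusted p of 0.056.

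**Figure D5:**
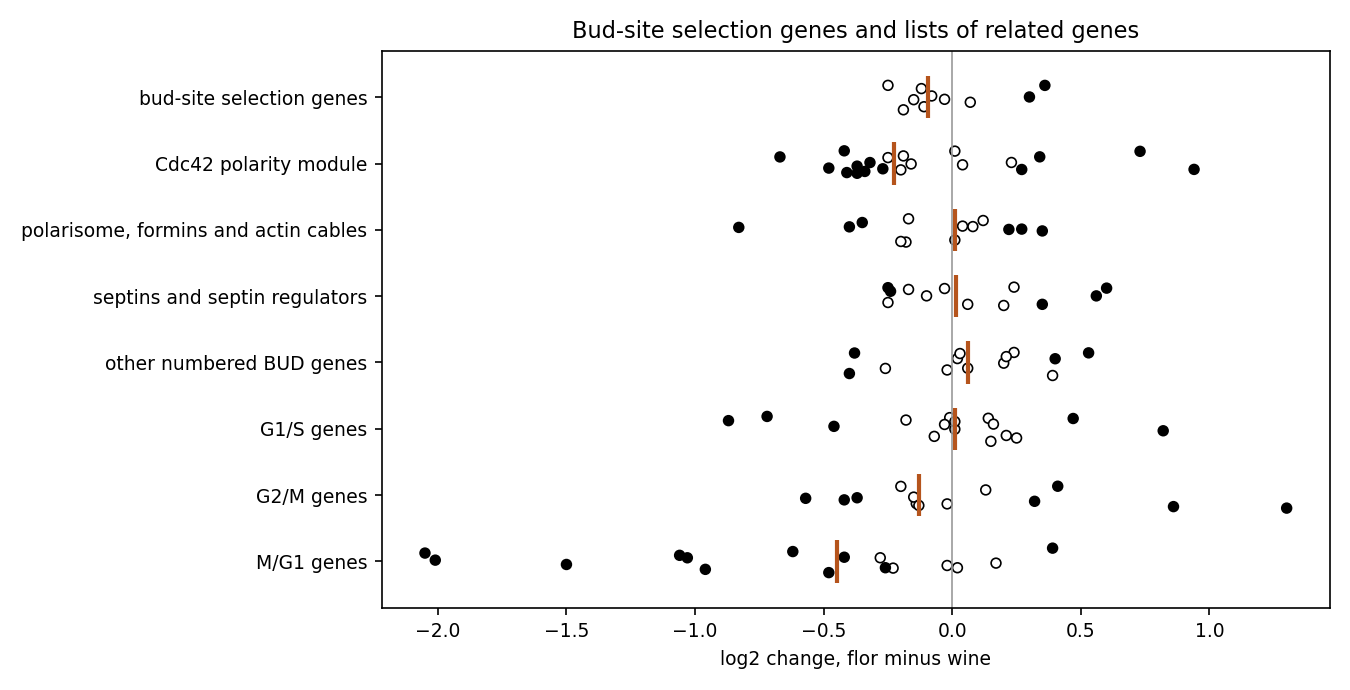
Log2 change, flor minus wine (horizontal axis), of the 10 bud-site selection genes and of each list of related genes, filled where the adjusted p was under 0.05, with an orange bar at the median. The bud-site selection genes span −0.25 to 0.36, and the M/G1 list reaches −2.05.

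Since AXL2, BUD8 and BUD9 are transcribed at set times of the cell cycle, genes of the cycle were set beside them. The test was passed by 68.8% of the M/G1 list, 31.2% of the G1/S list and 53.8% of the G2/M list, where 44.1% of all features passed. Of 16 M/G1 genes, 10 were lower in the flor strain and 1 was higher (median −0.45), led by the daughter-cell separation genes DSE2 (−2.05), DSE4 (−2.01) and CTS1 (−1.50), and AMN1 (0.39), an antagonist of mitotic exit and of daughter separation, was higher. Of 16 G1/S genes, the cyclin genes CLN1 (−0.87) and CLN2 (−0.72) and RNR1 (−0.46), of ribonucleotide reductase, were lower, and POL30 (0.82), the replication clamp gene, and MNN1 (0.47) were higher (median 0.01). Of 13 G2/M genes measured, 4 were higher, namely ALK1 (1.30), the cyclin genes CLB2 (0.86) and CLB1 (0.41, with overlapping arrays, named after its values were seen) and HST3 (0.32), and CDC20 (−0.57), HOF1 (−0.42) and KIN3 (−0.37) were lower (median −0.13). HST3 and KIN3 lost their calls when wine replicate 2 was omitted (adjusted p = 0.056 for each), and 2 G2/M genes were then higher, and without flor replicate 1, 5 G1/S and 2 M/G1 genes were higher. The part of cell-cycle stage in the levels of AXL2, BUD8, BUD9 or any other of the 10 bud-site selection genes was not tested.

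By the smallest distance between centred log2 profiles over the 6 arrays, the named genes most like RSR1 were TAP42 (distance 0.05, log2 change 0.38), BET3 (0.07 and 0.33) and STB6 (0.08 and 0.32). Those most like BUD3 were RIB1 (0.08 and 0.31), TUF1 (0.09 and 0.33) and RAD2 (0.11 and 0.36). These profiles share the strain difference and the 6 arrays, and the likeness is a description only.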

How the data were processed

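Total RNA was converted to Cy3-labelled cRNA for 1-colour Agilent arrays, per the labels' protocols. The values are the authors' deposited log2 intensities. The scale was read from their range, and the nearly equal distributions of the columns show that they had been normalized between arrays. R 2.14.2 and limma are named in the submitters' processing notes. For background correction, normalization method and filters, nothing is stated in the labels used here, and no detection calls were used. Normalization makes each change relative to other genes. Weaker binding of a probe to a strain with a diverged sequence would not be visible in these values.

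Probes were named by the platform annotation, which can be old (4061 of 6227 had 1 symbol, 0 several and 2166 none), and 125 symbols were updated through the R64 table. Probes of 1 gene were averaged, with no filter. The strains were compared with lmFit and eBayes of limma 3.58.1 (R 4.3.3), two-sided, with Benjamini-Hochberg adjustment over all features. The test was checked on simulated data, with 50 changed features for each size of change. It recovered 12% of log2 changes of 0.25, 66% of those of 0.5 and 94% of those of 1. A gene that did not pass may therefore still differ by a small change. In the real data 44.1% of features passed, so these shares need not hold there. Precision is limited by 3 arrays per strain.

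The members and lists were chosen with earlier results of these data known. The text names the 10 members, AXL1, up to 3 genes in each direction per related list that passed without overlap, and the 3 nearest profiles of the 2 members that changed most. Cell type markers named singly, MATALPHA2, CLB1 and the pairs with their alternatives were chosen after the values were seen. Alternatives were quantile normalization, median centring, slide 2 alone, the slide or the replicate number as a block, robust eBayes with an intensity trend, removal of the dimmest 25% of features, each array left out, removal of a length trend (loess, span 0.5, on 4052 genes with an R64 length) and an adjusted p under 0.01. Promoter motifs were not searched, since no sequences were used here.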

Additional observations from a re-analysis of the deposited data

How the results depend on the processing

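RSR1 kept its direction and its call in 13 of 14 alternatives (log2 change 0.30 to 0.40) and BUD3 its direction in all 15 (0.24 to 0.41) and its call in 8. Slide 2 alone, with 2 arrays per strain, left 0 of the 10 genes higher, with RSR1 at 0.30 (adjusted p = 0.11) and BUD3 at 0.25 (0.24), beside 701 features higher and 723 lower. On it the polarity module had 2 genes higher and 1 lower, the polarisome list 0 and 1, the G2/M list 2 and 1, the M/G1 list 0 and 6, other BUD genes 0 and 0, while septin genes had 0 lower and G1/S genes 0 higher. At an adjusted p under 0.01, 1 of the 10 genes was higher (BUD3, at 0.30, did not pass), as were 841 features, with 920 lower. That threshold gave the polarity module 2 higher and 3 lower and other BUD genes 1 and 1, with 0 polarisome and 2 G2/M genes higher and 0 septin genes lower. Slide as a block gave 1 polarisome gene higher and 1 septin gene lower. Without the dimmest 25% of features, which removes RSR1, BUD5, BUD2, BUD9 and RAX1, 1 of the 5 genes left was higher, and 1 septin gene was lower. With the length trend removed, AXL2 was at 0.04, BUD2 at 0.12 and BUD8 at 0.00 (none passed), with 4 G1/S genes higher and 0 septin genes lower. The within-array differences between genes of 1 role, recomputed in 9 alternatives chosen after seeing the data, ran from 0.51 to 0.58 for BUD3 minus BUD4 and from 0.14 to 0.34 for RSR1 minus BUD5. Some of these alternatives use fewer arrays or features, and the cause of the shifts was not tested.

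With single arrays left out, 1 to 2 of the 10 genes were higher and 0 to 1 lower (BUD9 without flor replicate 1, BUD4 without flor replicate 2). Log2 changes ran from 0.24 to 0.39 for BUD3, −0.34 to −0.16 for BUD4, −0.18 to −0.03 for AXL2, 0.31 to 0.40 for RSR1, 0.04 to 0.10 for BUD5, −0.07 to 0.03 for BUD2 (0.03 without flor replicate 2), −0.20 to −0.03 for BUD8, −0.19 to −0.12 for BUD9, −0.09 to −0.06 for RAX1 and −0.26 to −0.13 for RAX2. Genes higher and lower were 966 to 1502 and 1074 to 1777 over all features, 3 to 5 and 5 to 10 in the polarity module, 0 to 3 and 2 to 4 in the polarisome list, 3 to 4 and 0 to 2 among septin genes, 1 to 4 and 2 to 3 among other BUD genes, 2 to 5 and 3 to 3 in G1/S, 2 to 4 and 2 to 3 in G2/M and 1 to 2 and 7 to 10 in M/G1. Of 536 values under all alternatives for the 36 related genes named (AXL1 and those chosen because they passed without overlap), 459 kept direction and call, 77 lost the call and 0 reversed, which that choice favours.

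Deviations of same-numbered arrays from their strain means correlated at 0.37, 0.23 and 0.05 for replicates 1, 2 and 3. These were the best matches of flor replicates 1 and 2, while flor replicate 3 correlated best with wine replicate 2 (0.19), from the same slide. Whether the replicate numbers pair the arrays was thus not settled. With the replicate block, 2 of the 10 genes were higher and 0 lower (RSR1 0.36, adjusted p = 0.0055, and BUD3 0.30, 0.022), and 1393 features were higher and 1580 lower.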
